A study of Homo sapiens with 2 samples.

Results

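Inflammasome and pyroptosis genes were examined in HSC-3 cells, an established human squamous cell carcinoma line of the tongue, after treatment with the ferroptosis inducer FIN56. The genes are 10 of the 60616 in the deposited tables, picked by symbol: the sensors AIM2, IFI16, NLRP1 and NLRP3, the adaptor PYCARD, the inflammatory caspases CASP1 and CASP4, the gasdermins GSDMD and GSDMC, and the cytokine IL18. Bulk RNA-seq was available for 1 library of HSC-3 cells given 0.1% DMSO and 1 library of HSC-3 cells given 1 µM FIN56 for 48 h. The length of the DMSO treatment was not given in its own label. Both cultures were the same unmodified line grown in DMEM with FBS. FIN56 lowers the glutathione peroxidase GPX4, which removes lipid peroxides, and the comparison asks how the level of each gene differed under ferroptotic stress that the study describes as non-lethal.

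Inflammasomes are protein complexes that assemble when a cytosolic sensor meets microbial or misplaced DNA, membrane damage or another danger signal. The sensor recruits the adaptor PYCARD (also called ASC), which gathers and activates CASP1, and the caspase matures interleukin-18 and cuts gasdermins, whose freed ends form pores in the plasma membrane. The lytic death that follows is called pyroptosis and is distinct from ferroptosis, in which peroxidized membrane lipids kill the cell. Epithelial cells of skin and mucosa carry part of this machinery and are known to store interleukin-18.

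With 1 library per condition there was no error between cultures and no test. Each difference is given as the ratio of the deposited FPKM (fragments per kilobase of effective gene length scaled to library size), FIN56 over DMSO, and a ratio of 1.5 or more, or of 1/1.5 or less, is used as a mark of size. Beside it stands the ratio of the expected counts scaled by the library totals, with its exact 95% Clopper-Pearson interval. The interval covers counting error only, compares these 2 libraries and not the conditions, and treats PCR fragments without molecular identifiers as independent. Expected counts summed to 70184517 with DMSO and to 73062209 with FIN56. In bulk RNA a lower share of expressing cells and less RNA per expressing cell cannot be told apart.

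The cells carried squamous epithelial markers and lacked most leukocyte markers. All 8 epithelial markers (KRT5, KRT14, KRT17, KRT6A, TP63, EPCAM, CDH1 and SFN) were at 1 FPKM or more in both libraries, with a summed level of 5543.6 FPKM in DMSO and 5029.81 in FIN56. Of 10 leukocyte markers, 6, among them PTPRC, SPI1, CD3E, MS4A1 and NKG7, had 0 counts in both libraries, and 2 reached 1 FPKM in both. These were CD68, a lysosomal protein also made outside macrophages, at 57.27 FPKM in DMSO and 24.58 in FIN56, and CD14 at 3.62 and 5.15. The summed leukocyte level was 61.19 and 29.86 FPKM. Of 6 fibroblast and endothelial markers 1, COL1A1, reached 1 FPKM in both, and the summed level was 4.68 and 2.56 FPKM. The part of other cells in the levels below was not tested.

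All 10 genes were detected at 1 FPKM or more in both libraries. AIM2 and NLRP3 were at 1.5 or more and GSDMD was at 1/1.5 or less, while the other 7 lay between. Among the 12638 genes at 1 FPKM or more in both libraries, 3.87% were at 1.5 or more and 6.77% at 1/1.5 or less. Over the 24454 genes above 0 FPKM in both, which include many with few counts, the shares were 14.7% and 17.3%. With 10 genes, counts of 2 and 1 cannot be set firmly apart from these shares. In direction, 7 of the 10 had a higher FPKM in the FIN56 library and 3 a lower one, where 53.5% of the 12638 genes had a higher one, a share that 7 of 10 cannot be set firmly apart from. Their median log2 ratio was 0.21, against 0.03 over the 12638 genes and 0 over the 24454. The interval of the count ratio lay above 1 for 7 genes and below 1 for 2, where 38% and 35.9% of the 12638 genes did so, since at this depth small ratios also clear counting error.

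**Figure D1:**
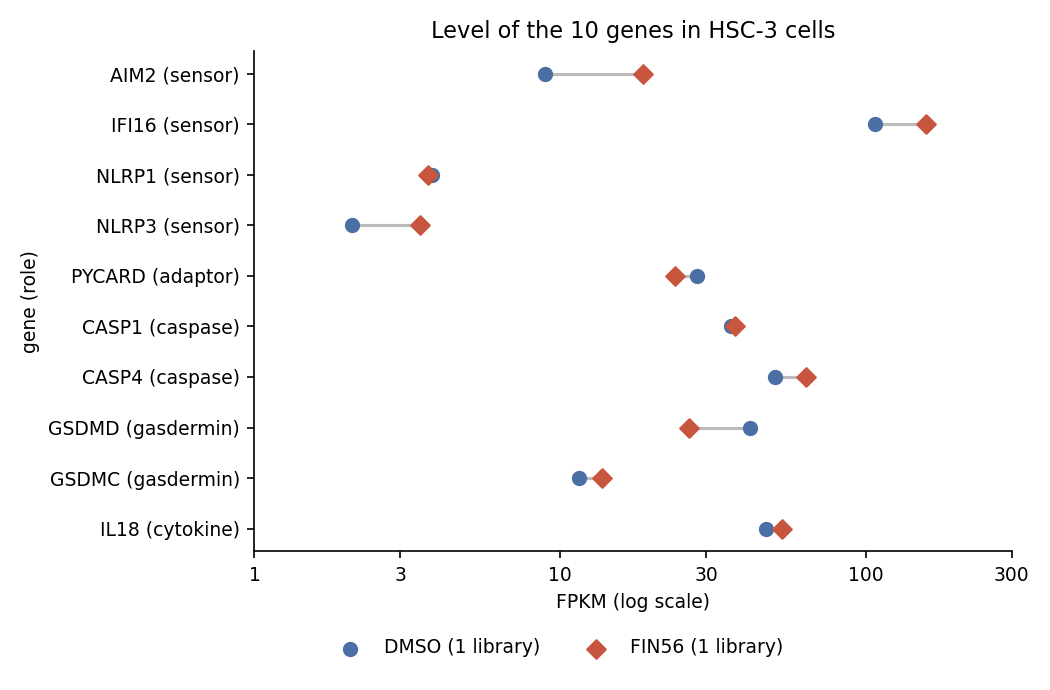
Level of each of the 10 genes in FPKM (horizontal axis, log scale) in the DMSO library (circles) and the FIN56 library (diamonds), 1 library each and so without error bars. AIM2 was at 8.94 with DMSO and 18.62 with FIN56, NLRP3 at 2.09 and 3.49, and GSDMD at 41.64 and 26.38, while the markers of NLRP1 and CASP1 nearly coincide.

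AIM2 (ENSG00000163568) is a cytosolic sensor of double-stranded DNA that binds it with a HIN domain and recruits PYCARD through a pyrin domain. The gene spans chr1:159061599-159187843 on the minus strand of GRCh38, and its canonical transcript has 6 exons and 1394 bases between 159062484 and 159076766. With DMSO it had 813 expected counts and 8.94 FPKM, and with FIN56 it had 1762 and 18.62. By FPKM the ratio was 2.08 (log2 1.06), and the count ratio was also 2.08, with an interval from 1.91 to 2.27. AIM2 had the highest ratio of the 10 genes and stood 67 from the top among the 12638 genes. Its counts were whole in both libraries, as they are where no fragment is divided with another gene, and its implied effective length was 1296 bases in DMSO and 1295 in FIN56. The ratio therefore held whether or not gene length entered it.

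IFI16 (ENSG00000163565) lies next to AIM2, at chr1:158999968-159055155 on the plus strand, and belongs to the same family of pyrin and HIN domain proteins. It is known as a sensor of nuclear and cytosolic DNA. It was by far the most abundant of the 10, with 18392 counts and 107.28 FPKM in DMSO and 26785 counts and 157.72 FPKM in FIN56. The FPKM ratio of 1.47 (log2 0.56) fell just short of 1.5, and with TPM in place of FPKM it came to 1.503. The count ratio was lower, 1.40, with an interval from 1.37 to 1.43, because the implied effective length was 2443 bases in DMSO and 2324 in FIN56. IFI16 stood 575 from the top among the 12638 genes. There were 12 FPKM of IFI16 for each FPKM of AIM2 with DMSO and 8.47 with FIN56. Summed over both genes the level was 116.22 FPKM in DMSO and 176.34 in FIN56, a ratio of 1.52.

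NLRP3 (ENSG00000162711, chr1:247416156-247449108, plus strand) senses potassium efflux and membrane damage and is known mainly from myeloid cells. It was the least abundant of the 10, at 483 counts and 2.09 FPKM in DMSO and 806 counts and 3.49 FPKM in FIN56. The FPKM ratio was 1.67 (log2 0.74), and the count ratio was 1.60 with an interval from 1.43 to 1.80, whose lower end lies under 1.5. The gene stood 230 from the top among the 12638. Both levels are low, and a pseudocount of 1 FPKM brought the ratio to 1.45. NEK7, the kinase that binds NLRP3 during its assembly, was at 15.81 FPKM in DMSO and 23.44 in FIN56, an FPKM ratio of 1.48 and a count ratio of 1.503 (1.44 to 1.56).

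NLRP1 (ENSG00000091592, chr17:5499415-5619424, minus strand), a sensor of proteases and ribosome stress known from keratinocytes, was at nearly the same level in both libraries. It had 1286.44 counts and 3.81 FPKM in DMSO and 1327.54 counts and 3.69 FPKM in FIN56. Its FPKM ratio was 0.969, and the count ratio of 0.991 had an interval from 0.918 to 1.07. Which library was higher depended on the scaling, since the ratio was 1.02 with DESeq2 size factors. Its fractional counts point to shared fragments. An unnamed gene listed as AC055839.2 (chr17:5499427-5501006), which lies inside NLRP1, had 177.56 and 132.46 counts. The counts of both genes summed to whole numbers, 1464 and 1460, with a ratio of 0.958 (0.890 to 1.03), and NLRP1 held 87.9% of the sum in DMSO and 90.9% in FIN56. NLRP3 stood at 0.549 times the FPKM of NLRP1 with DMSO and at 0.946 times with FIN56, where the counting intervals of the pair overlapped.

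The 250 bases before the RefSeq start site are shown for the 3 sensors on chromosome 1, which held the highest ratios of the 10 genes. They were taken from RefSeq on GRCh38.p14 and run 5′ to 3′ along each gene's own strand. Capitals mark a match, on either strand, to 1 of 3 searched motifs: the interferon-stimulated response element (ISRE, GAAA and GAAA with any 2 bases between them), the interferon-γ-activated site (GAS, TTC and GAA with any 3 between) and the kappaB element of NF-κB (GGG and CC with any 5 between). IFI16 has an additional upstream start, and the window shown is that of its canonical transcript. The windows lie at chr1:159076767-159077016 (AIM2, minus), chr1:159009657-159009906 (IFI16, plus) and chr1:247415923-247416172 (NLRP3, plus).
AIM2: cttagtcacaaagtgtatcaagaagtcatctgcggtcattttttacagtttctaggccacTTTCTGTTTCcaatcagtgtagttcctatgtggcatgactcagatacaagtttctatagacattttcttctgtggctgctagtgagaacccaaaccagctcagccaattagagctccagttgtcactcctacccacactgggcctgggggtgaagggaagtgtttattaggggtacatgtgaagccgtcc
IFI16: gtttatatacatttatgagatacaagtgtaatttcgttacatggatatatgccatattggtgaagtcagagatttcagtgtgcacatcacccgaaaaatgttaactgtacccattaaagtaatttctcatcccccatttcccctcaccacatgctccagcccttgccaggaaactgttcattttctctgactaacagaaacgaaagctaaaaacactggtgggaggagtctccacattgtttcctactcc
NLRP3: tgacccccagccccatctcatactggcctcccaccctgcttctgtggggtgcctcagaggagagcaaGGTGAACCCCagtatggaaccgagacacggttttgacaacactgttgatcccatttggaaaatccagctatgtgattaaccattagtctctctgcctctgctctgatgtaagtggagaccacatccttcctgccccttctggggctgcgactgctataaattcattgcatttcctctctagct
AIM2 carried an ISRE match 190 to 181 bases before its start. NLRP3 carried a kappaB match 183 to 174 bases before its start. Both matches are read on the opposite strand. IFI16 carried none of the 3 in the stretch shown.

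RefSeq windows of 300 bases, 250 before and 50 after the start, were given for 5 of the 10 genes (AIM2, IFI16, NLRP3, CASP4 and PYCARD), 6 windows in all. The ISRE was found in 1 of these 6 and in 3.57% of 35116 windows of all genes, GAS in 0 of 6 and 7.66%, and the kappaB element in 3 of 6 (NLRP3, CASP4 and PYCARD) and 58.7%. The kappaB letters are thus common in windows of this length. A match is a description of the letters and not evidence of binding, and no factor was measured here.

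PYCARD (ENSG00000103490, chr16:31201486-31203450, minus strand), the adaptor that joins AIM2 and NLRP3 to CASP1, was lower in the FIN56 library. It had 1262 counts and 27.97 FPKM in DMSO and 1114 counts and 23.76 FPKM in FIN56. The FPKM ratio was 0.849 (log2 -0.24), and the count ratio 0.848 had an interval from 0.782 to 0.920. The sensor and its adaptor thus differed in direction between the libraries. AIM2 stood at 0.320 times the FPKM of PYCARD in DMSO and at 0.784 times in FIN56.

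CASP1 (ENSG00000137752, chr11:105025397-105035250, minus strand), the protease that matures interleukin-18 and interleukin-1β, was close to level. It had 2609.44 counts and 36.12 FPKM in DMSO and 2951.44 counts and 37.26 FPKM in FIN56, an FPKM ratio of 1.03 and a count ratio of 1.09 (1.03 to 1.15). Its implied effective length was 1029 and 1084 bases, which makes the FPKM ratio the smaller of the pair. CASP1 shares sequence with its neighbour CARD16, a decoy that holds the caspase recruitment domain alone, and the counts of both genes were fractional. Their sums were whole, 3388 and 3840, with a ratio of 1.09 (1.04 to 1.14), and CASP1 took 77.0% of the sum in DMSO and 76.9% in FIN56. How RSEM divided the fragments therefore hardly differed between the libraries, although the level of either gene alone is uncertain.

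CASP4 (ENSG00000196954, chr11:104942866-104969366, minus strand), the caspase that binds cytosolic lipopolysaccharide and cuts GSDMD without a sensor complex, was higher in FIN56. It had 4528 counts and 50.61 FPKM in DMSO and 5681 counts and 63.69 FPKM in FIN56. By FPKM the ratio was 1.26 (log2 0.33), and the count ratio was 1.21 with an interval from 1.16 to 1.25. CASP4 was the second most abundant of the 10 genes in each library, at 1.40 times the FPKM of CASP1 in DMSO and 1.71 times in FIN56.

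GSDMD (ENSG00000104518, chr8:143553207-143563062, plus strand), the main pore-forming gasdermin cut by CASP1 and CASP4, was the member with the lowest ratio. It had 4286 counts and 41.64 FPKM in DMSO and 2772 counts and 26.38 FPKM in FIN56. The FPKM ratio was 0.634 (log2 -0.66), and the count ratio 0.621 had an interval from 0.592 to 0.652, wholly under 1/1.5. It stood 635 from the lowest ratio among the 12638 genes. The caspases that cut it were at or above their DMSO level while GSDMD was below.

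GSDMC (ENSG00000147697, chr8:129748196-129786624, minus strand), a gasdermin that CASP8 can cut, was slightly higher. It had 1558 counts and 11.51 FPKM in DMSO and 1989 counts and 13.74 FPKM in FIN56, an FPKM ratio of 1.19 (log2 0.26) and a count ratio of 1.23 (1.15 to 1.31). There were 3.62 FPKM of GSDMD for each FPKM of GSDMC with DMSO and 1.92 with FIN56.

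IL18 (ENSG00000150782, chr11:112143253-112164096, minus strand), the cytokine stored as a precursor until CASP1 matures it, had 3450 counts and 47.2 FPKM in DMSO and 3951 counts and 53.16 FPKM in FIN56. The FPKM ratio was 1.13 (log2 0.17), and the count ratio was 1.10 with an interval from 1.05 to 1.15. IL18 was thus slightly higher in the FIN56 library.

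**Figure D2:**
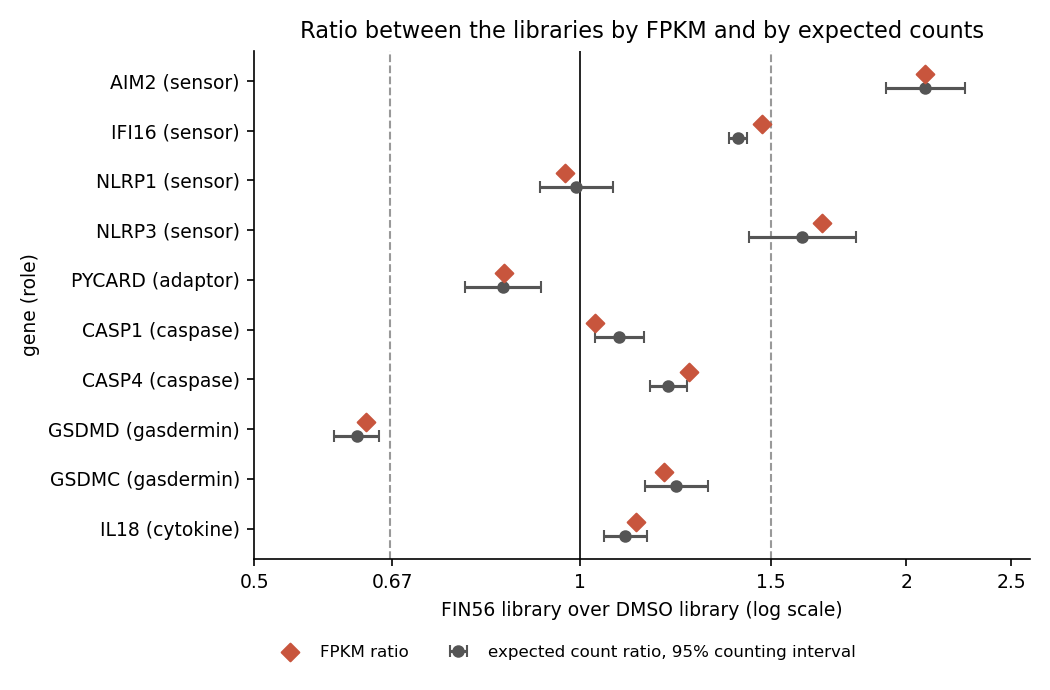
Ratio of the FIN56 over the DMSO library on a log scale for each of the 10 genes, by FPKM (diamonds) and by expected counts (circles, with the exact 95% interval for counting error only). The dashed lines mark 1.5 and 1/1.5. AIM2 lies beyond the upper line with its whole interval (1.91 to 2.27), GSDMD beyond the lower line (0.592 to 0.652), and the interval of NLRP1 includes 1.

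In order of level per length, the DMSO library ran IFI16, CASP4, IL18, GSDMD, CASP1, PYCARD, GSDMC, AIM2, NLRP1 and NLRP3, from 107.28 down to 2.09 FPKM. The counting intervals of all neighbours in this order were apart. They cover counting error only, and not how fragments were divided (CASP1 and NLRP1) or other differences between genes. In the FIN56 library the order was the same but for 2 exchanges. CASP1 (37.26 FPKM) stood above GSDMD (26.38), and AIM2 (18.62) stood above GSDMC (13.74). NLRP1 (3.50 to 3.90 FPKM) and NLRP3 (3.25 to 3.74) were the only neighbours whose intervals overlapped there.

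**Figure D3:**
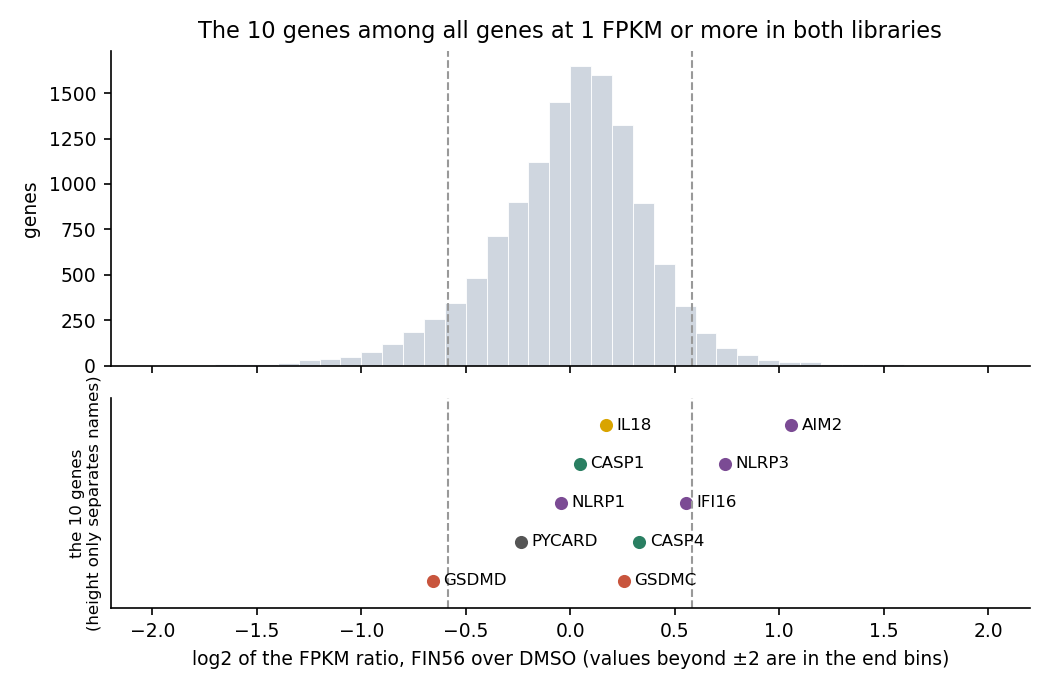
Distribution of the log2 FPKM ratio, FIN56 over DMSO, over the 12638 genes at 1 FPKM or more in both libraries (top, bins of 0.1, number of genes on the vertical axis), with the 10 genes below on the same axis. Colours mark the role of the gene (sensor, adaptor, caspase, gasdermin or cytokine), and dashed lines mark 1.5 and 1/1.5. AIM2 at 1.06 and NLRP3 at 0.74 lie right of the upper line, IFI16 at 0.56 just inside it, and GSDMD at -0.66 left of the lower line.

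The effective length that RSEM used for a gene follows from its count, its FPKM and the library total, and it changes when the estimated mix of transcripts changes. Over the 12638 genes the ratio of this length, FIN56 over DMSO, had a median of 0.997 and ran from 0.867 at the 5th percentile to 1.09 at the 95th. It was within 1% of 1 for 33.8% of genes. All 10 genes lay inside that range. AIM2 and PYCARD were within 1%, IFI16 (0.952), CASP4 (0.958) and NLRP3 (0.960) had the shortest length in FIN56 relative to DMSO, and CASP1 (1.05), GSDMC (1.03) and NLRP1 (1.02) had a longer one. No counts per transcript were used, so which transcripts lie behind these lengths is not known.

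**Figure D4:**
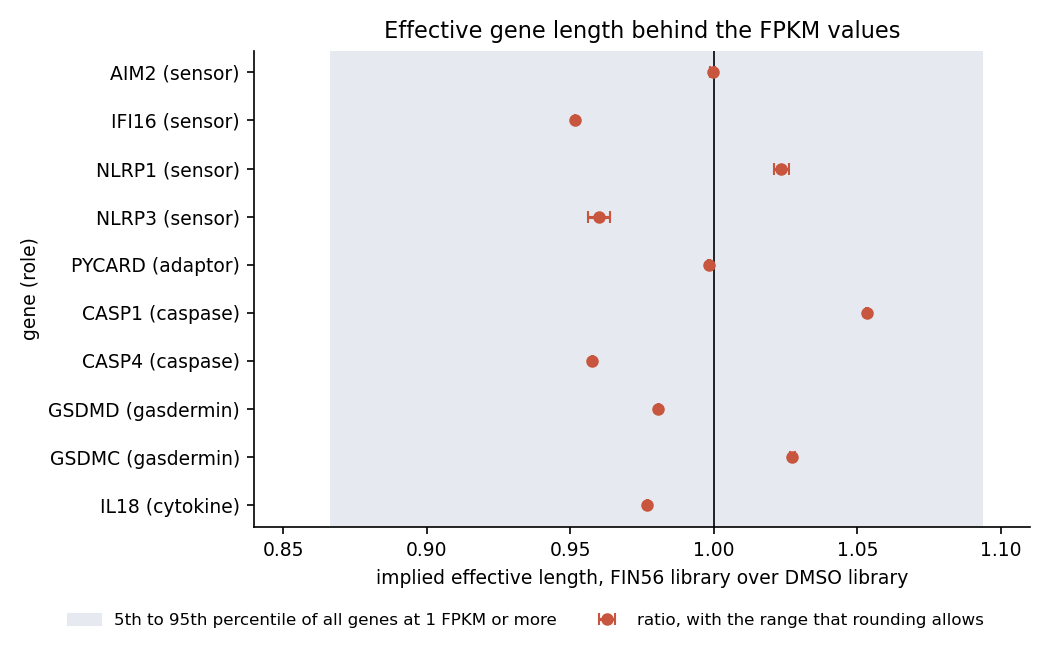
Ratio of the implied effective length, FIN56 over DMSO, for each of the 10 genes, with the range that rounding of FPKM to 2 decimals allows. The shaded band runs from the 5th to the 95th percentile of the 12638 genes (0.867 to 1.09), and all 10 genes lie in it, from IFI16 at 0.952 to CASP1 at 1.05.

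A list of 50 other genes of inflammasomes, pyroptosis and cytosolic DNA sensing was read in the same way. Of these, 43 were above 0 FPKM in both libraries and 32 at 1 FPKM or more, and 9 had 3 or fewer counts in both. At 1.5 or more there were 2, against 14.7% of all genes above 0 FPKM, and at 1/1.5 or less there were 5, against 17.3%. Both of the former, CARD17 and IL18RAP, had at most 12 counts in either library. Among the 32 genes at 1 FPKM or more, 0 were at 1.5 or more and 2 at 1/1.5 or less (background 3.87% and 6.77%), 19 were higher and 13 lower (53.5% of the 12638 genes were higher), and the median log2 ratio was 0.08. Their count intervals lay above 1 for 13 and below 1 for 10, near the 38% and 35.9% of the 12638 genes that did so. Neither the 10 genes nor this list lay on one side of 1 as a block.

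Of 11 other sensors, 8 were above 0 FPKM in both libraries and 4 at 1 FPKM or more. Among the 8 the count interval lay below 1 for 4 and above 1 for 0, against 23.1% and 23.4% of the 24454 genes above 0 FPKM in both. With 8 genes these counts cannot be set firmly apart from the shares. The 4 were NLRP2, NLRP7, NLRP10 and CARD8, and NLRP2 and NLRP7 divided shared fragments and are not separate cases. NLRP10 was under 1 FPKM, with an FPKM ratio of 0.915 but a count ratio of 0.743 (0.587 to 0.940). NLRP7, an NLR protein known from inherited molar pregnancy, had 455.2 counts and 2.05 FPKM in DMSO and 263.71 counts and 1.14 FPKM in FIN56. Its FPKM ratio was 0.556 and its count ratio 0.557 (0.477 to 0.650). These counts were fractional and summed to whole numbers with those of its paralog NLRP2, 3919 in DMSO and 3136 in FIN56, with a ratio of 0.769 (0.733 to 0.806). NLRP7 took 11.6% and 8.41% of that sum, so its own ratio rests on how RSEM divided shared fragments and is uncertain. CARD8, a sensor held in check by dipeptidyl peptidases, was at 5.3 and 3.45 FPKM, a ratio of 0.651, but its count ratio was 0.800 (0.703 to 0.909), and its implied effective length was 1426 bases in DMSO and 1752 in FIN56. Its counts of 530.55 and 441.72 were fractional too. The other members of the pyrin and HIN domain family were nearly absent, with 5 and 4 counts of PYHIN1 and 0 and 1 of MNDA, so that AIM2 and IFI16 made up nearly all of that family's RNA. P2RX7, the ATP-gated channel upstream of NLRP3, had 37 counts in DMSO and 28 in FIN56 and 0.23 and 0.10 FPKM, with a count interval from 0.429 to 1.22 that includes 1.

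Like GSDMD, and unlike GSDMC, the other gasdermins at 1 FPKM or more, GSDME and GSDMB, were lower in the FIN56 library. Of the 12638 genes 35.9% had a count interval below 1, and so few gasdermins cannot be set firmly apart from that share. GSDME was the most abundant gasdermin, with 8036 counts and 54.92 FPKM in DMSO and 5402 counts and 37.76 FPKM in FIN56. Its FPKM ratio of 0.688 was short of 1/1.5 and its count ratio 0.646 (0.624 to 0.668) was just past it. GSDMB had 509 and 281 counts, a count ratio of 0.530 (0.457 to 0.615), while its FPKM of 3.07 and 2.21 gave 0.720, with an implied effective length of 2362 bases in DMSO and 1740 in FIN56. GSDMA was at 0.57 and 0.51 FPKM, and its count interval (0.650 to 1.25) includes 1. Summed from GSDMA to GSDME, the level was 111.71 FPKM in DMSO and 80.6 in FIN56, a ratio of 0.722. NINJ1, which ruptures the plasma membrane after pores have formed, was at 19.81 and 17.06 FPKM, with a count ratio of 0.862 (0.802 to 0.926).

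CASP8, a caspase of apoptosis that also cuts GSDMC, was higher with FIN56, at 13.5 FPKM in DMSO and 17.44 in FIN56, an FPKM ratio of 1.29 but a count ratio of 1.17 (1.10 to 1.24). Of the cytokines, IL1B was at 215.48 and 265.81 FPKM with a count ratio of 1.24 (1.22 to 1.26), and IL1A was level at 126.72 and 125.78 FPKM with a count ratio of 0.993 (0.972 to 1.01). IL1B was the more abundant of the cytokines that CASP1 matures, at 4.57 times the FPKM of IL18 in DMSO and 5.00 times in FIN56.

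Genes of the other cytosolic DNA route and the interferon factors stayed below 1.5. CGAS, the enzyme that makes the messenger cGAMP on DNA, was at 12.24 FPKM in DMSO and 12.61 in FIN56, with a count ratio of 1.01 (0.958 to 1.07). STING1, the receptor of cGAMP, was at 10.1 and 12.48 FPKM, with a count ratio of 1.18 (1.09 to 1.27). IRF1 was at 51.91 and 56.08 FPKM with a count ratio of 1.08 (1.04 to 1.12), and IRF2, a factor known to drive GSDMD transcription, at 19.13 and 18.79 with 0.959 (0.907 to 1.01). By counts, TBK1 and IRF9 were the highest of these roles. TBK1 was at 22.24 and 29.24 FPKM, with a count ratio of 1.32 (1.26 to 1.37). IRF9 was at 21.86 and 26.26 FPKM, with a count interval from 1.22 to 1.39. Of the 8 DNA sensing genes on the list, the count interval lay above 1 for 3 and below 1 for 2. Of its 5 transcription factors it lay above 1 for 3 and below 1 for 1. AIM2, the highest of the 10 genes, had a larger ratio than each gene named here.

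**Figure D5:**
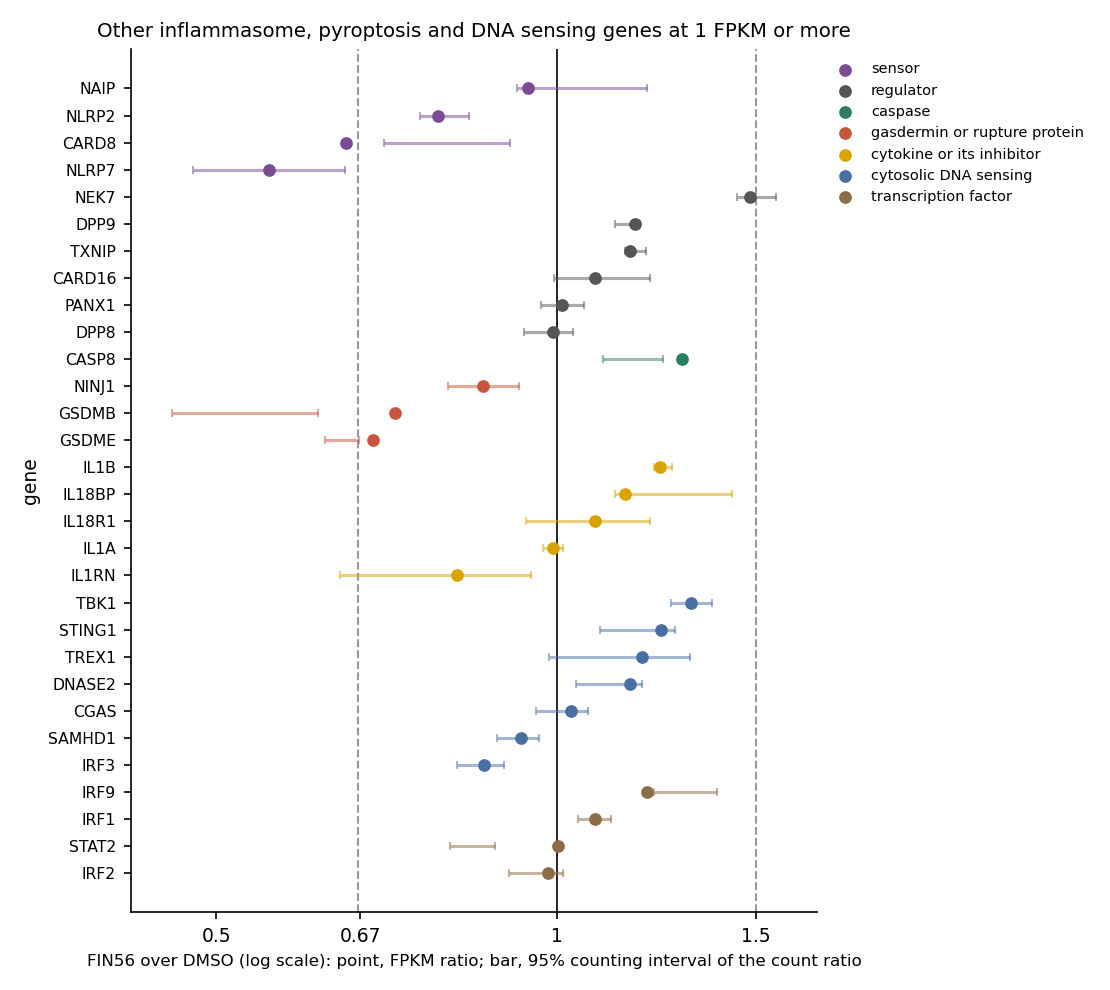
FPKM ratio, FIN56 over DMSO on a log scale (points), for 30 of the 32 other genes at 1 FPKM or more in both libraries, grouped and coloured by role, with bars for the exact 95% counting interval of the count ratio. A point may lie outside its bar where the effective length differed between the libraries, as for CARD8 and GSDMB. The dashed lines mark 1.5 and 1/1.5, and NLRP7 (0.556) and CARD8 (0.651) are left of the lower line.

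The genes whose levels over the 2 libraries were closest to those of AIM2, by Euclidean distance in log2 FPKM among 8823 protein-coding genes with whole counts, were THUMPD2, CD274 and LY96. THUMPD2 was at 9.92 FPKM in DMSO and 18.27 in FIN56 (distance 0.15). CD274, which encodes the checkpoint ligand PD-L1, was at 9.58 and 20.38 (distance 0.16). LY96, which encodes the partner MD-2 of TLR4, was at 10.11 and 20.12 (distance 0.21). With only 2 libraries many genes can lie this close, and the likeness is of level and ratio alone.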

How the data were processed

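RNA was taken with TRIzol and libraries were made with a stranded, poly(A)-selecting Illumina kit and limited PCR, per the labels. The submitters' processing notes name FastQC 0.11.7, STAR 2.6.1a, RSEM 1.3.1, DESeq2 1.26.0 and GRCh38, and the study's methods, written for its tumor libraries, name Ensembl release 94. The strand setting of the counting was not given in the sources used here. The authors deposited 4 tables: RSEM expected counts, FPKM, TPM, and rlog values (log2 scale, DESeq2), each with a column per library.

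The 10 genes and the list of 50 were chosen with earlier results of these data known. Ratios were taken from the deposited FPKM for genes above 0 in both libraries. Counting intervals used expected counts rounded to whole numbers and scaled by their totals. Their coverage was tested only on simulated independent counts, the case for which such intervals are built. Divided fragments, PCR copies and differences between cultures were not simulated. Implied effective length was the expected count divided by FPKM and by the library total. Positions came from GENCODE 44 (GRCh38) and promoters from RefSeq (GRCh38.p14). Beside the 10 genes, the rule named genes of the list past a ratio of 1.5 or 1/1.5 with at least 50 counts in all, 14 genes given in advance (of which 2 are not reported here), and the 3 genes nearest to AIM2. CARD16, CARD17, CARD18, CASP5, CASP12, IL18RAP, NLRP2, NLRP10, PYHIN1, MNDA, GSDMA, TBK1 and IRF9 were chosen after their values were seen. So were the fragment sums and the chromosomal neighbours. Alternatives were TPM, rlog, counts scaled by totals, by edgeR 4.0.16 (TMM) or by DESeq2 1.42.0 size factors, pseudocounts of 0.1 and 1 FPKM, minimums of 1 FPKM or 10 counts, and a fold of 2. Work was done in Python 3.11.15 and R 4.3.3. 1 library per condition left no sample to test, and whether the libraries came from cultures handled in parallel was not stated.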

Additional observations from a re-analysis of the deposited data

How the results depend on the processing

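No paired analysis was possible because there was 1 library a condition, which also means that none could be left out. Of the alternatives, 7 can change the ratio of a single gene (the minimums and the fold cannot). AIM2 stayed at 1.97 or more in 6 of 7 and GSDMD at 0.648 or less in 6 of 7. The exception for both was the rlog scale, which pulls differences toward 0 and gave 1.32 and 0.832. NLRP3 was at 1.5 or more in 5 of 7 (1.17 with rlog, 1.45 with a pseudocount of 1 FPKM), IFI16 in 1 of 7 (1.503 with TPM), and NLRP1 was above 1 in 2 and below 1 in 5. PYCARD was below 1 and CASP1, CASP4, GSDMC and IL18 above 1 in all 7. Of the 10 genes, 2 at 1.5 or more became 0 with rlog, 1 with a pseudocount of 1 and 1 at a fold of 2, and 1 at 1/1.5 or less became 0 with rlog and 0 at a fold of 2. Their median log2 ratio of 0.21 became 0.099 with rlog. Of the list of 50, the 2 at 1.5 or more became 0 with rlog, a pseudocount of 1, a minimum of 1 FPKM or a minimum of 10 counts. The 5 at 1/1.5 or less became 0 with rlog or a pseudocount of 1. They became 3 with a pseudocount of 0.1, a minimum of 10 counts or a fold of 2, and 2 with a minimum of 1 FPKM. Other settings raised the numbers. At 1.5 or more the 10 genes had 3 with TPM. The list had 3 with TPM, a pseudocount of 0.1 or any count scaling, and 6 at 1/1.5 or less with any count scaling. By counts scaled by totals NEK7 (1.503), GSDMB (0.530) and GSDME (0.646) entered, while CARD8 (0.800) and P2RX7 (0.727) left. Over all genes, 3583 at 1.5 or more became 7 with rlog, 476 with a pseudocount of 1, 489 with a minimum of 1 FPKM, 1323 with a minimum of 10 counts and 2088 at a fold of 2, and 4240 at 1/1.5 or less became 16, 785, 855, 1936 and 2384. Minimums and the larger fold leave fewer genes to count by construction. Scaling moved the median of all expressed genes by under 0.1 on the log2 scale.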

Other observations

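The chromosomal neighbours of AIM2 and GSDMD were read after the values of both genes were known. Within 500 kb of AIM2 there are 20 other protein-coding genes, and IFI16 was the 1 of them at 1 FPKM or more in both libraries. The rest, among them olfactory receptor genes and the Duffy receptor ACKR1, had 5 or fewer counts in each library. IFI16 (FPKM ratio 1.47) was thus the only neighbour with enough counts to set beside AIM2 (2.08). Both genes were already known to be higher in the FIN56 library, as were 53.5% of the 12638 genes. A pattern along the locus could not be read from this pair.

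GSDMD lies in a gene-dense stretch of chromosome 8 with 32 other protein-coding genes within 500 kb, of which 20 were at 1 FPKM or more in both libraries. Their FPKM ratios ran from 0.802 (EEF1D) to 1.20 (PUF60) with a median of 1.07, and GSDMD was at 0.634. Of the 20, 0 were past 1.5 or 1/1.5, where 3.87% and 6.77% of the 12638 genes were, so a count of 0 among 20 is near these shares. Another 8 neighbours were above 0 FPKM in both libraries but under 1 FPKM in at least 1 of them. Of these, 5 (NRBP2, OPLAH, RHPN1, MAFA and MAPK15) were at 1/1.5 or less and 1 (EPPK1) at 1.5 or more. Over the 24454 genes above 0 FPKM in both, 17.3% and 14.7% were. Those genes include the 12638, of which only 6.77% and 3.87% were. The share among the rest, under 1 FPKM in at least 1 library, was not taken and must be higher than 17.3% and 14.7%. The share of 17.3% is thus too low a mark for these 8 neighbours. Counts in DMSO and FIN56 were few for MAFA (14 and 10), MAPK15 (20 and 11) and RHPN1 (55 and 39). They were higher for OPLAH (168.43 and 81), NRBP2 (403.6 and 219.85) and, in the other direction, EPPK1 (197 and 404.03). NRBP2 was at 1.78 FPKM in DMSO and 0.99 in FIN56 (0.556).

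In the caspase cluster of chromosome 11, CASP1, CASP4 and CARD16 were expressed, CARD16 at 24.14 FPKM in DMSO and 26.09 in FIN56. CASP5 had 3 and 2 counts, CASP12 0 and 0, CARD17 3 and 7, and CARD18 0 and 2.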
